A study of Homo sapiens with 40 samples.

Results

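The ERBB4 locus was examined as a set of accessible regions in 2 HER2-positive breast cancer lines. ERBB4 encodes HER4, a receptor tyrosine kinase, and was taken with all peak regions whose midpoint lay in the gene body or within 50 kb of either end. The members were chosen by position and by the presence of a peak in at least 2 of 40 libraries, without regard to line, arm or time. Of 15 merged regions in the window, 1 was found in a single BT474R library and was left out. The remaining 14 regions, of 71600 in the whole series, are numbered 1 to 14 here along the chromosome. The member nearest to the cutoff, region 7, was found in 3 libraries.

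Accessibility was measured by ATAC-seq, in which a transposase cuts open chromatin, in BT474, an established HER2-amplified luminal breast ductal carcinoma line, and in BT474R, a single trastuzumab-resistant clone derived from it. All cells were serum starved. The baseline group was collected at 0 h, and the other groups received EGF, HRG (heregulin) or water as the vehicle control for 1, 12 or 24 h in starvation medium. Each of the 20 groups had 2 libraries, so that each line had 20 libraries and each arm had 6 per line. The labels do not say whether the duplicates were separate cultures, so p-values cover the spread between these libraries, which may be technical.

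HER4 binds neuregulins such as HRG, as well as betacellulin, HB-EGF and epiregulin, and pairs with the other HER receptors. After ligand binding it can be cut by ADAM17 and then by gamma-secretase, which releases an intracellular domain that enters the nucleus. In the mammary gland HER4 is known for its part in differentiation and milk production through STAT5. Open chromatin at a start site, or at enhancers in introns, is generally a feature of genes that are or can be transcribed, but transcription was not measured in these files.

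ERBB4 (ENSG00000178568) lies on the minus strand at chr2:211375717-212538841 of GRCh38, spans 1.16 Mb and has 28 exons in its principal transcript, of which intron 1 alone covers 414 kb. Regions 12 and 13 lie next to each other at the start site, position 212538802, which is inside region 13. Region 13 (chr2:212538322-212539491) covers exon 1 and the bases upstream, and region 12 (chr2:212537159-212538216) lies in intron 1, with its summit 0.878 kb inside the gene. The bases just upstream of the outermost annotated start are shown because they lie within region 13 and were open in BT474 alone. Capitals mark the single match to the SP/KLF motif GGGGCGGG, here on the opposite strand, in RefSeq's GRCh38.p14 sequence of the minus strand (chr2:212538842-212539052).
ERBB4 promoter: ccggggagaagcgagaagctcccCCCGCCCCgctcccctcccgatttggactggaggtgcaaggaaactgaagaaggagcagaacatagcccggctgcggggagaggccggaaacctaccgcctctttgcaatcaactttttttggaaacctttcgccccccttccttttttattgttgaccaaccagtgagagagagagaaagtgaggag
The same motif was found in 22.6% of 35116 RefSeq promoter windows of all genes, so its presence does not set ERBB4 apart. The GC content of these 211 bases was 55.9%.

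5 intronic regions are shown over 200 bp around their median summit, on the plus strand of hg38, because they represent each of the patterns described below. Region 5 (intron 4, window chr2:211766856-211767055) and region 8 (intron 2, window chr2:211958153-211958352) were open in BT474 alone. Region 9 (intron 1, window chr2:212173898-212174097) was open in BT474R alone, region 11 (intron 1, window chr2:212294891-212295090) in all libraries of both lines, and region 4 (intron 25, window chr2:211408501-211408700) more often in BT474. Capitals mark a match to TGANTCA, the AP-1 motif, on either strand.
Region 5: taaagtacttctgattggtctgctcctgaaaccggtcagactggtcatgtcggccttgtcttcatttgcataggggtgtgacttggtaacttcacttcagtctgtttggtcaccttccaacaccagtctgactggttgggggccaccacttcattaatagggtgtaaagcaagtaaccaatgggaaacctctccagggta
Region 8: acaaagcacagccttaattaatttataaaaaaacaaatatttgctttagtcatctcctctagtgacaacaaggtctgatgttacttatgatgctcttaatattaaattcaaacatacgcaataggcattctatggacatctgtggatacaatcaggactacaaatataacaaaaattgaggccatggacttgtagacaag
Region 9: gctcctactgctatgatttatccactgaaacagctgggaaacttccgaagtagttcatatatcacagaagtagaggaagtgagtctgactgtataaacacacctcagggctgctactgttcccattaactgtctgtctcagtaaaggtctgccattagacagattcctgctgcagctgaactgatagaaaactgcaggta
Region 11: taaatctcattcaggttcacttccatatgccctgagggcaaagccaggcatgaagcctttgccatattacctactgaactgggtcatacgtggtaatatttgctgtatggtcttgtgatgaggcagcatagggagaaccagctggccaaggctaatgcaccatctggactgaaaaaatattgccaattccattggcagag
Region 4: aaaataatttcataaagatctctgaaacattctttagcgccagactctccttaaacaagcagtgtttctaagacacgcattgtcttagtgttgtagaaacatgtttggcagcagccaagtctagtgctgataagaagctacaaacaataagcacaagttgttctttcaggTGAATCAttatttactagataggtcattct
Of 10 motifs searched on both strands, AP-1 (TGANTCA) matched in 1 of the 14 windows, against 16.3% of all 71600 windows of this length. FOX (TGTTTAC) matched in region 1 and region 14 (8.55% of all windows). For GATA, searched as AGATAA, the match was in region 1 and region 7 (8.87% of all windows). GRHL (AACCNGTT), AP-2 (GCCNNNGGC), SP/KLF, ETS (CCGGAAG), CRE (TGACGTCA), the estrogen response element and TEAD (GGAATGT) had no match in any of the 14 windows. None of the matches overlapped another. These counts describe letters in the windows and do not show binding.

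A library was called open at a region where it had a peak there. The strength of the peak was given as its rank percentile, the share of the other peaks in the same list with a lower score, so that 100 is the strongest peak of a library. The lists held 47571 to 56846 peaks in BT474 and 32479 to 56494 in BT474R, and the 6 BT474R libraries at 12 h were short (32479 to 45808 peaks). Read depth was not analysed here, so shorter lists and closed chromatin cannot be told apart at a weak region. In such bulk libraries, fewer cells with an open region and less opening per cell cannot be told apart either. The luminal identity of the lines was checked at 9 marker promoters, of which 8, among them KRT8, KRT18, GATA3 and FOXA1, were open in all 40 libraries, and ESR1 was open in 20 BT474 and 19 BT474R libraries. Of 7 markers of other cell types, PTPRC, CD3E, PECAM1 and KRT14 had no region at the promoter, VIM and COL1A1 were open in all 40 libraries, and KRT5, a basal keratin, was open in 7 BT474 and 14 BT474R libraries (Fisher's exact test, adjusted p = 0.495).

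The first comparison asked how the resistant clone differed from its parent. With all arms and times pooled and whole lists used, most ERBB4 regions were open in fewer BT474R than BT474 libraries. The region over its start site had no peak in any BT474R library. Of the 14 regions, 9 were open in fewer BT474R libraries and 1 in more (Fisher's exact test on 20 against 20 libraries, adjusted by Benjamini-Hochberg over 71600 regions). Over all regions 18.4% were called lower and 11.0% higher. The median difference in open libraries was -52.5 percentage points over the 14 regions and 0.0 over all regions. The 14 regions were open in 71.4% of region and library pairs in BT474 and 27.9% in BT474R, where all regions gave 68.3% and 62.2%.

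**Figure D1:**
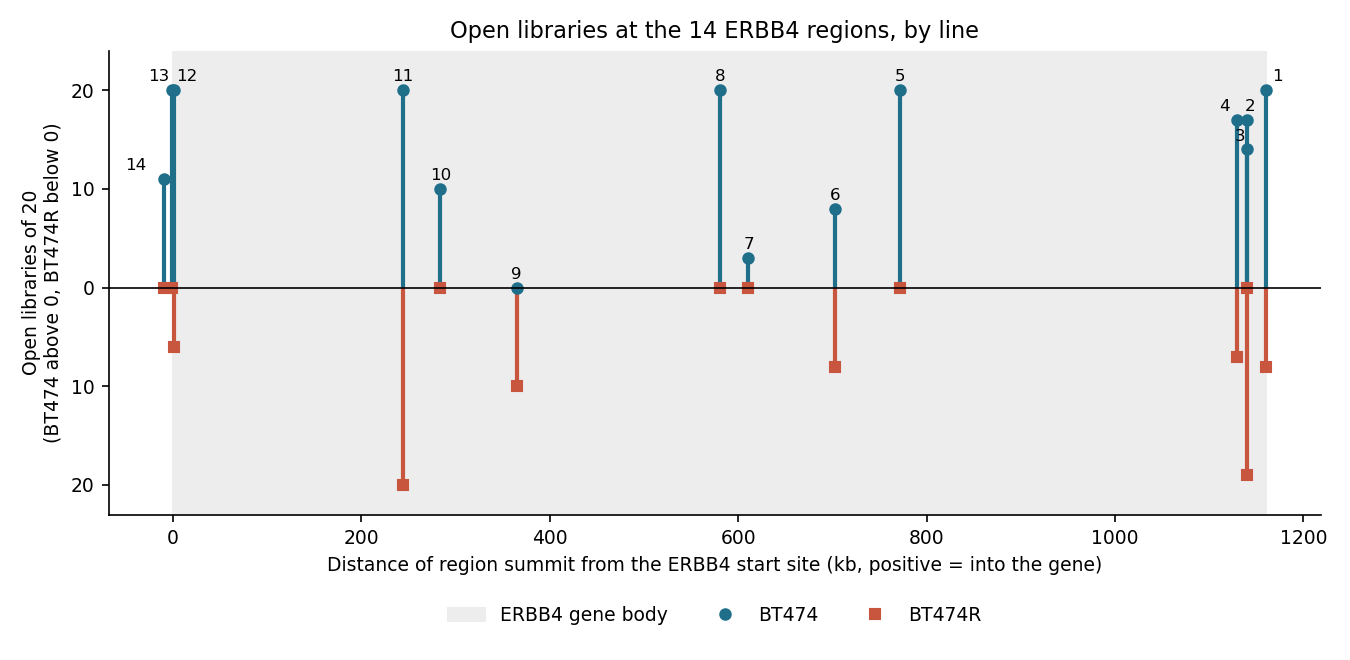
Each of the 14 ERBB4 regions is drawn at the distance of its summit from the start site (kb), with the number of open BT474 libraries above 0 and of open BT474R libraries below 0, each out of 20; the grey band is the gene body and the numbers name the regions. Regions 5, 8 and 13 reached 20 libraries in BT474 and 0 in BT474R, region 11 reached 20 in both, and region 9 was seen in 10 BT474R libraries alone.

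At the start site the lines did not overlap in strength. Region 13 was open in 20 of 20 BT474 libraries, at rank percentiles from 11.7 to 60.3 with a median of 38.4, and in 0 of 20 BT474R libraries (adjusted exact p = 4.18e-10). Region 12 was open in all 20 BT474 libraries, from 33.5 to 66.3 with a median of 56.7. It was open in 6 BT474R libraries, with percentiles of 6.06 and 14 in the control duplicates at 1 h, 2.7 in 1 control library at 24 h, 8.94 and 3.12 with EGF at 24 h and 27.1 in 1 HRG library at 24 h (adjusted exact p = 2.6e-05). The highest BT474R value at region 12 therefore lay under the lowest BT474 value, and no BT474R library was open there at 0 or 12 h. The call at region 12 was lost when the 8 baseline and control libraries of each line were compared alone (adjusted exact p = 0.136), where the difference was -62.5 percentage points against -70 with all libraries.

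The introns held further regions that were open in BT474 alone. Region 5 (chr2:211766648-211767169) was the strongest of the locus in BT474, at 62.6 ± 4.88 (SD, n = 20), and had no peak in BT474R. Region 8 (chr2:211957934-211958355) stood at 33.5 ± 8.34 (n = 20) in BT474 and had no peak in BT474R either (both adjusted exact p = 4.18e-10). Together with region 13, these gave 3 of 14 regions open in 20 of 20 BT474 and 0 of 20 BT474R libraries, a pattern that 2.52% of all regions showed. For these 3 regions the call held under all alternatives run, with smaller differences at 2 of them. With equal numbers of top peaks the difference was -100 percentage points at region 5, -35 at region 8 (adjusted exact p = 0.0294) and -55 at region 13 (adjusted exact p = 0.000738), and with a score of at least 400 it was -100, -45 and -60.

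The weaker BT474 regions were open in part of the libraries. Region 3 (intron 25, chr2:211396888-211397127) was open in 14 BT474 and 0 BT474R libraries at a mean percentile of 8.6 where open (adjusted exact p = 2.6e-05). Region 14, upstream of the gene (chr2:212547785-212548722, summit 9.1 kb before the start), was open in 11 and 0 (adjusted exact p = 0.000783), and region 10 (intron 1, chr2:212254408-212254894) in 10 and 0 (adjusted exact p = 0.00209). The call at region 3 was lost with the baseline and control libraries alone, where the difference was -62.5 against -70 percentage points (adjusted exact p = 0.136). At region 10 the difference went from -50 to -5 percentage points with at least 50% of the region covered (adjusted exact p = 1.0), and the call was also lost without the 12 h libraries (adjusted exact p = 0.0632) and with the baseline and control libraries alone (adjusted exact p = 0.639). At region 14 it went from -55 to -15 with equal numbers of top peaks and with a score of at least 400 (adjusted exact p = 0.529 and 0.478), and the call was also lost with 50% coverage (adjusted exact p = 0.0527) and with the baseline and control libraries alone (adjusted exact p = 1.0). Region 7 (intron 3, chr2:211927432-211927705) was open in 3 and 0 libraries, with no percentile above 2.89, and did not pass the test (adjusted exact p = 0.494). With weak peaks of this kind the list length matters, and when every list was cut to its top 32479 peaks, 7 regions were left in the window, which were regions 2, 5, 8, 11, 12, 13 and 14.

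At the far end of the gene, region 1 (chr2:211378499-211378983), in the untranslated part of the last exon, 28, was open in 20 BT474 and 8 BT474R libraries (adjusted exact p = 0.000274). Its mean percentile where open was 21.7 ± 7.45 (n = 20) in BT474 and 18.1 ± 11.9 (n = 8) in BT474R. Region 4 (chr2:211408484-211408804) was open in 17 and 7 libraries (adjusted exact p = 0.0128), at 14 ± 11.3 (n = 17) and 13.9 ± 9.23 (n = 7). Where they were open, these 2 regions thus differed between lines by less than 1 SD. The calls at both were lost without the 12 h libraries (adjusted exact p = 0.0632 and 0.301) and with the baseline and control libraries alone (adjusted exact p = 0.314 and 0.515). At 0 and 1 h, region 1 was open in 8 of 8 libraries of each line. Region 4 was then open in 7 of 8 BT474 and 6 of 8 BT474R libraries. At 12 and 24 h, region 1 was open in 12 of 12 BT474 and 0 of 12 BT474R libraries, and region 4 in 10 and 1.

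3 regions ran the other way on the rank percentile or on the number of open libraries. Region 9 (chr2:212173826-212174102) was open in 0 BT474 and 10 BT474R libraries (adjusted exact p = 0.00209), at 13.5 ± 13 (n = 10). Its call was lost with a peak score of at least 400 (adjusted exact p = 0.859), without the 12 h libraries (adjusted exact p = 0.0632) and with the baseline and control libraries alone (adjusted exact p = 1.0). Region 11 (chr2:212294765-212295178) was the only member open in all 40 libraries, and its percentile was 33.3 ± 10.3 in BT474 and 48.1 ± 7.72 in BT474R (n = 20 each), a difference of 14.8 (permutation within 10 conditions, adjusted p = 0.000132). Region 2 (intron 25, chr2:211393781-211394223) was open in 17 and 19 libraries (adjusted exact p = 1.0). Its percentile, with 0 for a library without a peak, was 17.4 in BT474 and 36.5 in BT474R (permutation within conditions, adjusted p = 0.00186). The values overlapped in both cases, from 5.5 to 50.5 against 30.2 to 59.6 at region 11 and, where open, from 1.54 to 44.9 against 8.01 to 53.7 at region 2. With equal numbers of top peaks, regions 2 and 11 were also open in more BT474R libraries, by 75 and 65 percentage points (adjusted exact p = 1.7e-05 and 8.03e-05). With a peak score of at least 400 the differences were 45 and 25 percentage points, and region 2 alone was called (adjusted exact p = 0.0217 and 0.364).

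By the same permutation test on the percentile, 9 of 14 regions were lower and 3 higher in BT474R. Over all regions the shares were 43.6% and 27.8%, so a call on the percentile was common in this comparison. Region 6 (intron 3, chr2:211835718-211836015), named here after its values were seen, was open in 8 libraries of each line.

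**Figure D2:**
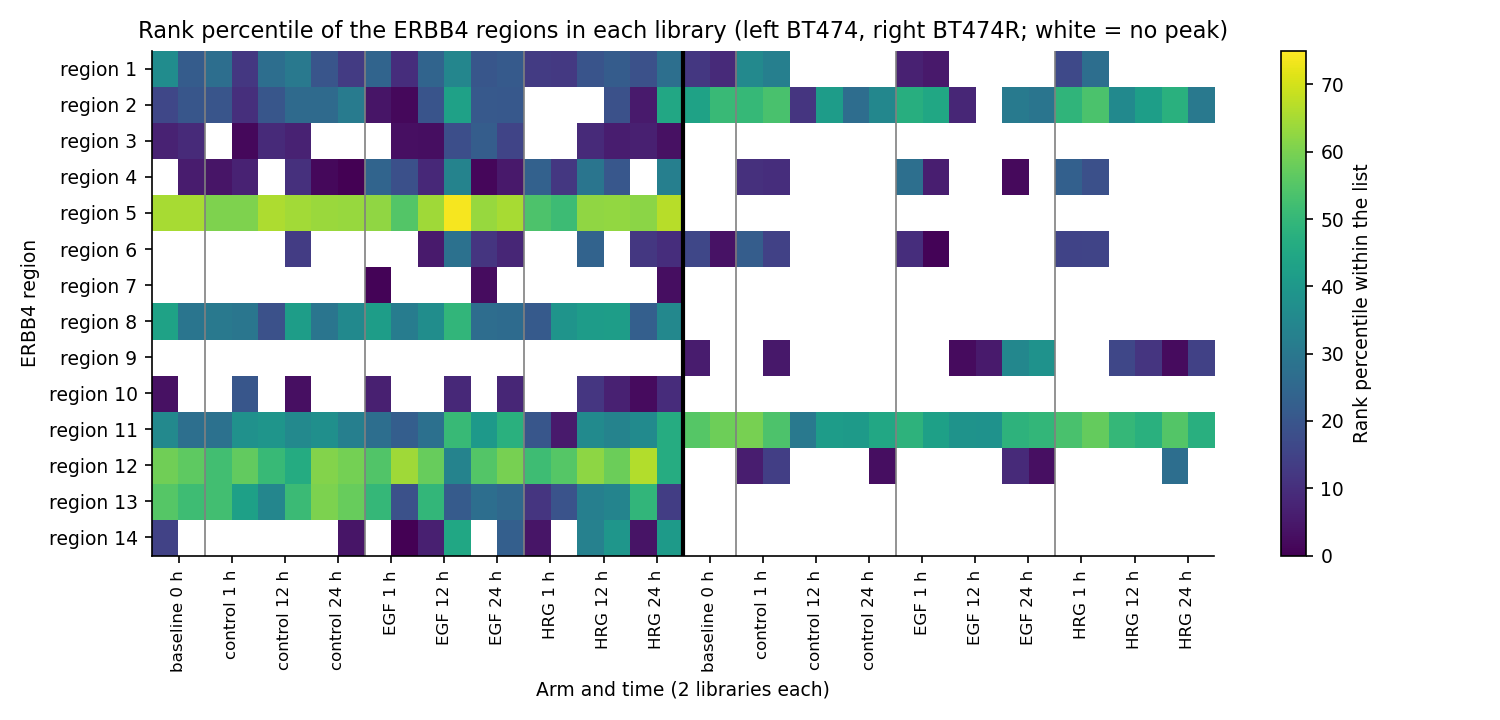
Rows are the 14 ERBB4 regions and columns the 40 libraries, ordered by line, arm and time, with the rank percentile of the peak as colour (scale from 0 to 75) and white for no peak. Regions 5, 8 and 13 are filled across BT474 and white across BT474R, and regions 1 and 6 are filled in BT474R only at 0 and 1 h.

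The number of ERBB4 regions open in a library was 7 to 13 in BT474, with a mean of 10.0 ± 1.62 (SD, n = 20), and 2 to 7 in BT474R, with a mean of 3.9 ± 1.45 (n = 20). Per 10000 peaks, the values were 1.41 to 2.46 in BT474 and 0.478 to 1.29 in BT474R and did not overlap. The number of peaks moved with this count within BT474R, where the 11 lists shorter than the shortest BT474 list (47571 peaks) had 2 to 5 open regions. The other 9 BT474R libraries had lists of the same length as BT474 and held 4 to 7 open regions. With equal numbers of top peaks, the BT474R mean was 52.9% of the BT474 mean, against 39.0% with the whole lists.

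**Figure D3:**
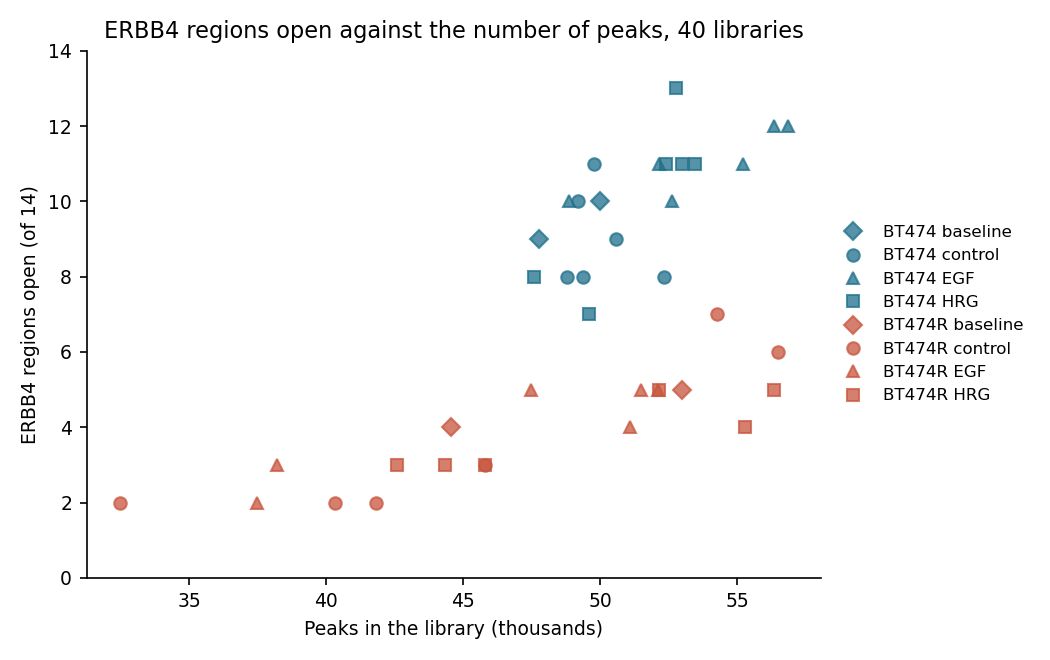
Each point is a library, with its number of peaks on the x axis and the number of the 14 ERBB4 regions open in it on the y axis; colour gives the line and shape the arm. At the same list length, from 47571 peaks upwards, BT474R libraries held 4 to 7 open regions and BT474 libraries 7 to 13.

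Several regions were ordered by time in BT474R rather than by arm. Regions 1 and 6 were open in 8 of 8 BT474R libraries at 0 and 1 h and in 0 of 12 at 12 and 24 h, in every arm. This pattern was noticed in the data and is given as a description, and 0.184% of all regions showed it. Region 4 was open in 6 of 8 and 1 of 12 libraries. In BT474 region 6 ran the opposite way, with 0 of 8 libraries open at 0 and 1 h and 8 of 12 later, of which 4 were EGF, 3 HRG and 1 control, and region 1 was open throughout. The peak numbers in BT474R were 44546 to 56494 at 0 and 1 h and 32479 to 55289 later, and their part in the loss of regions 1 and 6 was not tested. Region 1 had percentiles of 35.2 and 32.3 in the control libraries at 1 h, 16.6 and 27.1 with HRG, 6.98 and 5.23 with EGF and 12.1 and 8.98 at baseline, so both EGF libraries and both baseline libraries lay below every control and HRG library at 1 h.

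The second comparison asked whether the ligands changed the locus, and no region passed after adjustment. Too few regions of the whole series had a p near the smallest each test can give (0.00926 for the exact permutation) for any to pass. That no region passed therefore does not show that the ligands had no effect. On the number of open libraries, 0 of 14 regions passed an unadjusted p of 0.05 (Fisher's exact test, 6 against 6) for EGF or HRG against control in either line, or for EGF against HRG. The shares of all regions that did so were 1.19% for EGF and 1.64% for HRG in BT474, 0.388% and 0.207% in BT474R, and 0.0489% in BT474 and 0.0936% in BT474R for EGF against HRG. The EGF and HRG comparisons share their control libraries. The counts of open regions were 9.0 ± 1.26 in control, 11.0 ± 0.894 with EGF and 10.2 ± 2.23 with HRG in BT474, and 3.67 ± 2.25, 4.0 ± 1.26 and 3.83 ± 0.983 in BT474R (n = 6 each). The directions depended on how the lists were handled. The EGF mean was 122% of control in BT474 and 109% in BT474R with whole lists, 114% and 111% per 10000 peaks, and 81.8% and 66.7% with equal numbers of top peaks, which also removes the weaker peaks. In BT474 the HRG mean was 113% of control with whole lists and 90.9% with equal numbers of top peaks.

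The start site of ERBB4 had lower mean percentiles with ligand in BT474, a difference that did not pass after adjustment. Region 13 had percentiles of 55.3 and 51.6 at baseline, 34.3 to 60.3 with a median of 51.6 in the 6 control libraries, and 18.5 to 50 with a median of 26.1 with EGF. With HRG the 6 libraries ran from 11.7 to 49.3, with a median of 25.7. At each of the 3 times both HRG libraries lay below both controls, at 11.7 and 19.1 against 52.3 and 42.5 at 1 h, at 32.4 and 33.7 against 34.3 and 51.0 at 12 h, and at 49.3 and 13.7 against 60.3 and 57.5 at 24 h. The mean difference of -23 had p = 0.00926, the smallest that the exact permutation within time points can give, and an adjusted p of 0.105 over all regions. For EGF the difference was -17.7 (exact permutation, p = 0.0556, adjusted p = 0.291), and at 1 h the EGF values of 50 and 18.5 overlapped the controls.

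Region 12, the neighbour inside the gene, had similar means in all arms, which were 54.4 in control, 54.1 with EGF and 56.7 with HRG in BT474. With equal numbers of top peaks, region 13 was open in 6 of 6 control, 2 of 6 EGF and 1 of 6 HRG libraries (Fisher's exact test, HRG against control p = 0.0152, adjusted p = 0.891), and region 12 in 6, 5 and 6. With at least 50% of the region covered by peaks, the HRG difference at region 13 was -21.5 and p rose to 0.139 (exact permutation). In BT474R region 13 had no peak in any arm, so no response could be measured there.

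Regions 4 and 14 had higher means with either ligand in BT474, again without passing after adjustment. Region 4 was at 0.253 to 10.4 in the 5 open control libraries, 1.38 to 33.4 in 6 EGF libraries and 12.3 to 32.5 in 5 HRG libraries. With 0 for an absent peak, its means were 3.95, 15.2 and 19.6, and the exact permutation gave p = 0.0463 for EGF (adjusted p = 0.279) and p = 0.0278 for HRG (adjusted p = 0.185). Region 14 was open in 1 of 2 baseline libraries, at 14.8. It was open in 1 of 6 control libraries (24 h, 4.36), 4 of 6 with EGF and 5 of 6 with HRG, where it reached 33.1 and 39.4 at 12 h and 3.95 and 40.9 at 24 h. The test missed the threshold for HRG (Fisher's exact p = 0.0801, exact permutation p = 0.0556), and p fell to 0.0152 by Fisher's exact test without the second HRG library at 1 h or the second control library at 24 h (adjusted p = 0.62 and 0.841). In all, the percentile test gave an unadjusted p under 0.05 at 1 of 14 regions for EGF and at 2 for HRG in BT474, where 16.6% and 18.0% of all regions did so, and at none for EGF against HRG (6.63%).

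**Figure D4:**
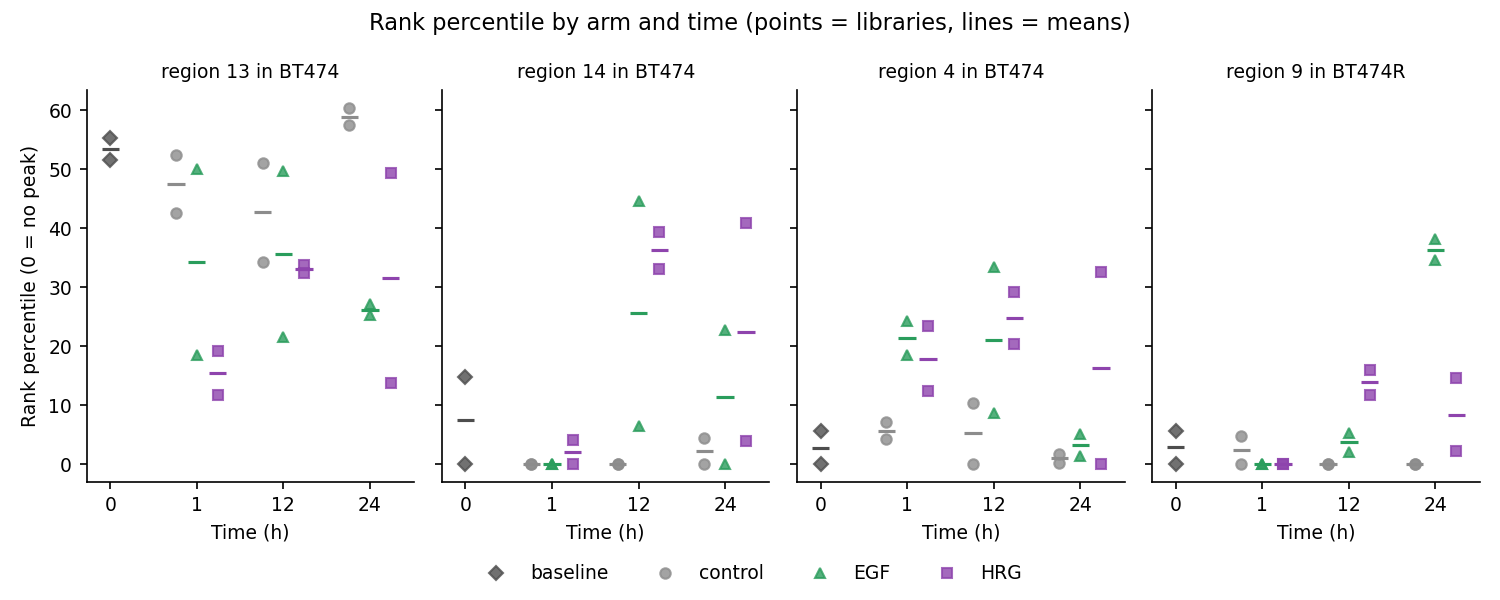
Rank percentile, with 0 for no peak, against time (h) for regions 13, 14 and 4 in BT474 and region 9 in BT474R; points are single libraries, shapes and colours the arms and short lines the means of the 2 libraries. At region 13 both HRG libraries lie below both controls at 1, 12 and 24 h, and at region 9 all 8 ligand libraries at 12 and 24 h had a peak and the 4 controls had none.

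In BT474R, region 9 had a peak mostly in the ligand arms. It was open in 4 of 6 EGF and 4 of 6 HRG libraries, all at 12 and 24 h, and in 1 of 6 controls, at 1 h (Fisher's exact p = 0.242 for each ligand). The percentiles were 2.12 and 5.28 at 12 h and 34.6 and 38.1 at 24 h with EGF, and 16.0 and 11.7 and then 2.27 and 14.5 with HRG. The contrast of 8 of 8 ligand libraries with 0 of 4 controls at 12 and 24 h was noticed in the data, and 0.504% of all regions showed it. At these times the lists held 37476 to 55289 peaks with ligand and 32479 to 45799 in the controls, so list lengths overlapped. The part of list length in this contrast was not tested. Region 9 was also open in 1 of 2 baseline libraries, at 5.68, and 1 control library at 1 h, at 4.71.

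Region 2 had its lowest mean with EGF in BT474R. The mean percentile was 26.6 with EGF, 36.3 in control and 43.1 with HRG (exact permutation, EGF against control p = 0.0463, adjusted p = 0.36). The EGF libraries had 47.0 and 44.8 at 1 h, 8.01 and no peak at 12 h and 30.6 and 29.1 at 24 h, so the values fell within the range of the controls (11.5 to 53.4) apart from both libraries at 12 h. EGF minus HRG was -16.5 at region 2 (exact permutation, p = 0.0185, adjusted p = 0.303) and -7.39 at region 11 (exact permutation, p = 0.0278, adjusted p = 0.318). An unadjusted p under 0.05 on the percentile was found at 1 of 14 regions for EGF and 0 for HRG against control, where 12.9% and 10.2% of all regions had one, and at 2 of 14 for EGF against HRG, where 12.0% did.

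The other genes of the HER4 pathway were compared at their promoters, 1 kb either side of a start. Among 13532 protein-coding promoters with a region, 6.75% were called lower and 1.02% higher in BT474R. ERBB4 was called lower (20 and 6 open libraries, adjusted exact p = 9.05e-05), and 312 promoters were, like ERBB4, open in all BT474 and at most 6 BT474R libraries. The partner receptors EGFR, ERBB2 and ERBB3 were open in all 40 libraries, with mean percentiles of 90, 100 and 98.5 in BT474 and 96.1, 100 and 97.4 in BT474R.

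Of 7 genes for HER4 ligands, 4 had a region at the promoter. NRG2, a neuregulin, was open in 20 BT474 and 5 BT474R libraries (adjusted exact p = 2.32e-05), while NRG3, BTC (betacellulin) and HBEGF (HB-EGF) were open in all 40. NRG1, the gene for HRG itself, NRG4 and EREG (epiregulin) had no region there. Among the genes of the proteases that cut HER4, ADAM17 and the gamma-secretase subunits PSEN2, NCSTN, APH1A and PSENEN were open in all 40 libraries. Of 6 partners of the intracellular domain, YAP1, WWOX and NCOR1 were open in all 40 and TAB2 in 20 and 19. STAT5B, a transcription factor activated through HER4, was open in 9 BT474 libraries and 1 BT474R library (adjusted exact p = 0.0963), and STAT5A had no region at the promoter. The ubiquitin ligases ITCH, WWP1 and NEDD4, which mark HER4 for degradation, were open in all 40. In all, 20 of the 24 other genes had a region at the promoter. Of these, 1 was lower in BT474R and 0 higher by the adjusted test, where 6.75% and 1.02% of all promoters were. For a ligand against control, 0 passed an unadjusted p of 0.05 (Fisher's exact test), where 0.207% to 1.64% of all regions, not promoters alone, did so. Since 17 of the 20 were open in all 40 libraries, presence could not differ between arms there, and no conclusion is drawn from this count.

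The surroundings of ERBB4 were mixed. The nearest promoters listed on the 3′ side, LANCL1 and CPS1, and IKZF2 on the 5′ side were open in all libraries of both lines, and SPAG16, farther on the 5′ side, was open in 20 BT474 and 0 BT474R libraries (adjusted exact p = 1.37e-09). In 1.0 Mb beyond the window, 1 of 4 regions on the 3′ side and 6 of 12 on the 5′ side were lower in BT474R, and 0 were higher on either side. Over all regions 18.4% were lower and 11.0% higher, so lower regions were also found beyond ERBB4, mostly on the 5′ side. Across the genome, the genes whose share of a library's open regions was most like ERBB4's over the 40 libraries were CAST (Spearman's rho = 0.905), EFNA5 (0.899), LDLRAD3 (0.893), KRT33B (0.893) and PLEKHM3 (0.892), of 9255 genes compared. The 40 points fall into the 2 lines and share the list lengths, and inside BT474 the 5 values of rho were 0.42 to 0.695, and inside BT474R they were 0.501 to 0.773, with no test.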

How the data were processed

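ATAC-seq peak lists of 40 libraries were analysed, with groups taken from the labels. Reads were trimmed by the authors with TrimGalore 0.6.6, mapped to GRCh38.p13 with BBMap and used for calling peaks in each library separately with Genrich, removing mitochondrial and blacklisted reads. The options of the peak caller were not given in the sources used here. The peak score the authors deposited is an area under a significance curve, with a lowest value of 200, so weaker peaks were not listed. The −log10 p and q columns they deposited were not used in any test. Scores depend on depth and were only ranked within a list. The study's count model on reads was not repeated, since reads were not analysed here, and presence shows no change at regions open throughout.

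Peaks on chromosomes 1 to 22 and X overlapping by 1 bp were merged and regions in at least 2 lists kept. Gene positions came from GENCODE release 44 (0 peaks passed a chromosome end). Presence was compared by two-sided Fisher's exact test, and rank percentiles (0 where no peak) by two-sided permutation, with 100000 resamples within 10 conditions for lines (10000 with a library left out) and all arrangements within times for ligands. P-values of regions were adjusted over all 71600 regions, and those of promoters over the 13532 protein-coding promoters with a region. Ligand counts used the unadjusted p, with the adjusted value beside it. Named regions were those within 1 kb of a start, those called, the 5 with the highest percentile and the 4 with the largest line difference in each direction. The members, lists and tests were chosen with earlier results of these data known. Of the pathway lists, 1 gene is not reported here. Tests were tried on simulated data. Alternatives were a score of at least 400, equal numbers of top peaks, peaks of 400 bp, 50% coverage, regions in 1 or 4 lists, other flanks, other sets of libraries, a replicate block, and, for percentiles, absent peaks left out. The tests ran in scipy 1.17.1 with numpy 2.4.6 and pandas 2.3.3 under Python 3.11.15, sequences were read with pysam 0.24.0 and figures drawn with matplotlib 3.10.9.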

Additional observations from a re-analysis of the deposited data

Results flagged for a closer look

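The response to a ligand, as the rank percentile with ligand minus control, was compared between BT474R and BT474 by exact permutation within time points and lines in 28 tests (14 regions, 2 ligands), of which 3 had an unadjusted p under 0.05. At region 13, the start site, the HRG response differed by 23 (p = 0.00926, exact permutation, adjusted p = 0.343 over all regions). Since BT474R had no peak there in any library, this value repeats the HRG difference within BT474 and is no separate result. At region 11 the HRG response was -5.4 in BT474 and 6.56 in BT474R, a difference of 12.0 (p = 0.0484, exact permutation, adjusted p = 0.492). At region 6 the EGF response was 6.61 in BT474 and -4.34 in BT474R, a difference of -10.9 (p = 0.0278, exact permutation, adjusted p = 0.424).

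Among 32 groups of values large enough to be screened, 1 held a value that stood apart by Dixon's criterion, which flags about 1 group in 20 by chance. This was the percentile of region 12 in the second BT474 library with EGF at 12 h, at 33.5 against 54.5 to 64.4 in the other 5 EGF libraries.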

How the results depend on the processing

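The count of regions called between lines on presence (10) was 5 with a peak score of at least 400, 6 with equal numbers of top peaks, 6 without the 12 h libraries and 3 with baseline and control libraries alone, and the count on the percentile (12) was 6 under the first, second and last of these. The first pair of settings removes weak peaks, and the last pair keeps all 14 regions with fewer libraries. The presence calls under the first pair were not all among the 10. Each setting of that pair also called differences higher in BT474R that were not called with whole lists. The rest of their calls were among the 10 and were lower in BT474R. With equal numbers of top peaks 1 region (region 13) passed an unadjusted p of 0.05 for HRG in BT474, against 0. For HRG in BT474, leaving out 1 library gave 0 to 1 regions. EGF as a percent of control in open regions was 122 in BT474 and became 87.5 with a score of at least 400, 81.8 with equal numbers of top peaks and 112 with 50% of the region covered, and in BT474R it was 109 and became 66.7 with equal numbers. No called difference between lines turned its direction, and at region 1 the percentile difference went from -14.5 to -3.66 with absent peaks left out. Leaving out 1 library at a time left 10 and 12 calls between lines. The replicate numbers did not pair the libraries (correlation of deviations in 90 pairs of groups from -0.214 to 0.499, over 0.1 in 14), and with the replicate block the line counts were 10 and 12 and the ligand counts 0.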
